A study of Mus musculus with 8 samples.

Results

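Retinoic acid is made from vitamin A and is cleared again by enzymes whose genes it controls itself. The genes described here are 9 that carry it through the cell: Stra6, which takes up retinol, Rdh10 and Aldh1a3, which oxidise retinol to retinal and retinal to retinoic acid, Dhrs3, which turns retinal back into retinol, Cyp26a1 and Cyp26b1, which break retinoic acid down, Crabp1 and Crabp2, which bind it in the cytoplasm, and Tgm2, a transglutaminase whose gene responds to retinoic acid. They are 9 of the 19751 mouse genes that a probe of the arrays could be paired with through its accession, and they have 10 of the 39429 probes, 2 of them for Tgm2. Gene expression was measured in AtT20 cells, a mouse line grown from a corticotroph tumor of the pituitary. Total RNA came from 4 control samples kept without the compound for 48 hr and 4 samples kept for 48 hr with HX630, an agonist of the retinoid X receptors (RXR), at 10 μM. Both groups were held in DMEM with 1% stripped serum, a serum depleted of small lipid-soluble hormones. The labels number the 4 samples of each group but do not say whether they were separate cultures, so p-values measure the spread between these samples, which may be technical. With RNA from whole cultures, fewer cells that express a gene and less of its RNA in each cell cannot be told apart.

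Retinoic acid acts through the retinoic acid receptors (RAR), which sit on DNA as pairs with RXR. The pair binds repeats of a short half-site, often a direct repeat with 5 bases between them (DR5), and RXR with other partners or with itself uses closer spacings. Cyp26a1, Rarb and Dhrs3 are textbook genes of the response, and as Cyp26a1 and Dhrs3 lower the supply of retinoic acid, their induction closes a feedback loop. An RXR agonist binds the RXR partner of such pairs. Corticotrophs are the pituitary cells that make ACTH, and retinoids are known to affect ACTH production in their tumors.

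The stretches of DNA in front of the genes at the centre of the comparison differ in whether they hold such a repeat, and they are printed here for that reason. The sequences are from RefSeq on build GRCm38.p6, each being the 250 bases in front of an annotated start of transcription, written 5′ to 3′ in the direction of the gene. Capitals mark a DR5, searched on both strands as one of the half-sites AGGTCA and AGTTCA, or of those that begin with G, namely GGGTCA and also GGTTCA, then any 5 bases, then another of these half-sites. For Dhrs3 the first of its 3 listed starts is shown.
Cyp26a1 (+ strand, chr19:37697558-37697807): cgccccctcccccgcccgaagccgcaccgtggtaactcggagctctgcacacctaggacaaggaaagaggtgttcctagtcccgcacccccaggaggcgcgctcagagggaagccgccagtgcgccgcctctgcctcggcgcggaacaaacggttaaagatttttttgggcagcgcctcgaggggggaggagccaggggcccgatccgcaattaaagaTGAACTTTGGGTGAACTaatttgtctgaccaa
Rarb (- strand, chr14:16575477-16575726): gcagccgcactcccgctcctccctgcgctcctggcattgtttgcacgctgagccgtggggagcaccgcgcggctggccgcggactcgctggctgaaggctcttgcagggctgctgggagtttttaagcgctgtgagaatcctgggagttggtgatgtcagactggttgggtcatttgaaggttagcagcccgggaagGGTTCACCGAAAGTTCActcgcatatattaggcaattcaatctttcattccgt
Dhrs3 (+ strand, chr4:144892577-144892826): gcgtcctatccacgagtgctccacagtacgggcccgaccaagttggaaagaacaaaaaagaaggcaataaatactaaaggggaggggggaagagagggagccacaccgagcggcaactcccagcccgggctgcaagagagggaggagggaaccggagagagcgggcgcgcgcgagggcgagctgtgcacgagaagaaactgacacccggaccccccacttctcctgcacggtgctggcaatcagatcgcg
Cyp26b1 (- strand, chr6:84593811-84594060): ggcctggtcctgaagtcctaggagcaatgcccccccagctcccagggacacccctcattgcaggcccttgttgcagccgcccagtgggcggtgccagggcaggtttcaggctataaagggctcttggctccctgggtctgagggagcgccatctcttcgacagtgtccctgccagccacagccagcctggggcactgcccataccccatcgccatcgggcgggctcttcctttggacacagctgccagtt
In Cyp26a1 the repeat spans positions -32 to -16 from the start, at chr19:37697776-37697792, and read on the opposite strand it is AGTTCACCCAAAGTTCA. In Rarb it spans positions -53 to -37, at chr14:16575513-16575529, on the strand of the gene. No half-site of these 4 spellings was found in the windows of Dhrs3 or Cyp26b1.

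RefSeq windows of 300 bases, 250 before and 50 after a start, were listed for 5 of the 9 genes and made up 10 windows. Rdh10, Crabp2, Tgm2 and Aldh1a3 had none in the table. A DR5 was found in 32 of 32851 windows of all genes (0.0974%), and among the 9 genes in the window of Cyp26a1 alone. A single half-site was far more common and was found in 43.7% of all windows. One of the 4 starts of Stra6 had a half-site, 15 bases after the start, and the window of Crabp1 had none. The closer repeats DR1 and DR2 were found in 0.222% and 0.268% of all windows and in none of the 10. A match describes these letters only, and a window without one says nothing about sites further away.

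**Figure D1:**
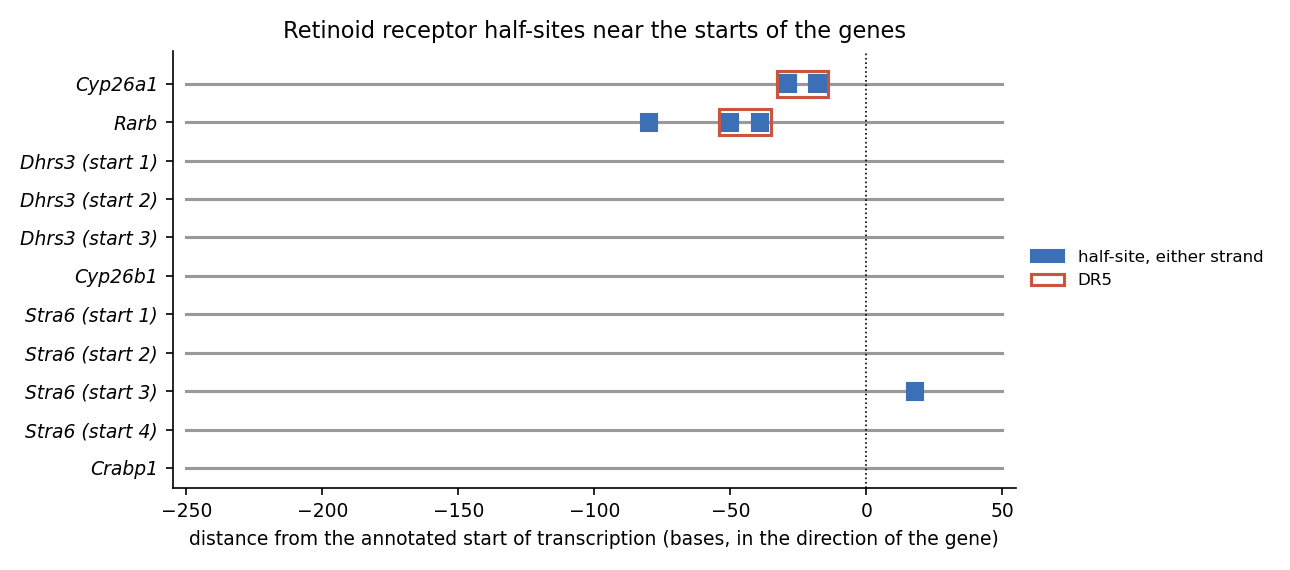
Half-sites (blue boxes) and DR5 repeats (red frames) in the windows of the 5 genes with a listed start and of Rarb. The horizontal axis is the distance from the start of transcription in bases, in the direction of the gene, and each line is 1 window of 300 bases. Cyp26a1 and Rarb each hold 1 DR5, and the windows of Dhrs3, Cyp26b1 and Crabp1 hold no half-site.

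With HX630, 3 of the 9 genes, 7 of which were tested, fell, and they were Dhrs3, Cyp26b1 and Tgm2. None of the 9 rose past the threshold. Dhrs3 fell to 27.6% of its control signal, Cyp26b1 to 35.6% and Tgm2 to 44.4%. Of the other 6, Rdh10 was lower by less than the fold required, Crabp2, Stra6 and Cyp26a1 did not pass the test, and Crabp1 and Aldh1a3 were too dim to be tested. Across the 15320 genes tested, 11.2% fell and 8.38% rose by the same rule, so that changes of this kind were common on these arrays. The rule was an adjusted p under 0.01 and a change of more than 1.5-fold in limma's moderated test, adjusted by the Benjamini-Hochberg method over 28553 probes. The median log2 fold change of the 7 tested genes was -0.34, beside -0.034 over all genes tested. The 9 genes were chosen with earlier results of these data known, so their share and median cannot show that the set differs from other genes. Every control array shared 1 slide and every HX630 array another, with no scan in common, so treatment cannot be told apart from slide or scan.

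**Figure D2:**
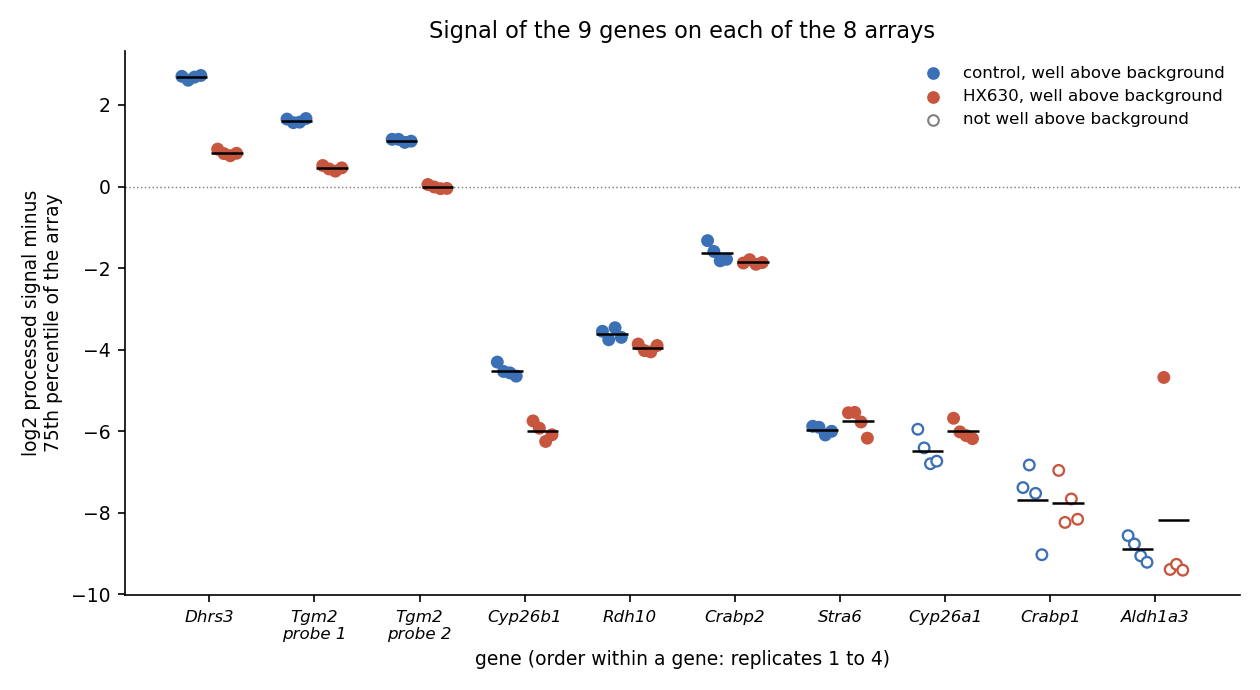
Signal of each of the 10 probes on each array, in log2 units relative to the 75th percentile of that array, with control arrays in blue, HX630 arrays in red and a black line at each group mean. Open circles are signals not well above background, and levels of different probes cannot be set against each other. The groups of Dhrs3, Tgm2, Cyp26b1 and Rdh10 do not overlap.

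The loss was largest for Dhrs3, the enzyme that returns retinal to retinol. On the log2 scale relative to the 75th percentile of its array, its signal was 2.70, 2.61, 2.68 and 2.72 on control arrays 1 to 4. It was 0.92, 0.81, 0.75 and 0.82 on the HX630 arrays. The groups stood far apart, and the arrays within a group lay close together. The log2 signal was 2.68 ± 0.0506 (SD, n = 4) in the control and 0.82 ± 0.068 (SD, n = 4) with HX630. The log2 fold change was -1.86 (SE 0.0462, 95% interval -1.96 to -1.75, adjusted p = 1.22e-07 in limma), a 3.62-fold fall. Dhrs3 was bright enough for background to count little, with processed intensities of 8273 to 11970 on control arrays and 3087 to 3405 on HX630 arrays. It had the 198th largest fall of the 15320 genes. No half-site was found in its windows, as printed above.

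Rdh10 catalyses the opposite step, the oxidation of retinol to retinal that limits the making of retinoic acid in many tissues. Its log2 signal was -3.55, -3.76, -3.47 and -3.70 on control arrays 1 to 4, and -3.86, -4.03, -4.06 and -3.90 on the HX630 arrays. All 4 HX630 arrays lay below all 4 control arrays, which was also true of 32.8% of all genes tested. The log2 fold change was -0.34 (SE 0.0781, 95% interval -0.52 to -0.16, adjusted p = 0.00621 in limma). This left 78.8% of the control signal and was under the fold required. With arrays scaled to their spike-in control probes it was -0.12 (adjusted p = 0.271 in limma), so the size of this fall depended on the scaling. Setting Dhrs3 against Rdh10 within each array removes any scaling of the array, and the ratio fell by 1.51 on the log2 scale (exact permutation test over the 8 arrays, two-sided, p = 0.0286, which is the smallest that 4 against 4 can give). This ratio was among 4 ratios of pairs that were chosen after the values were seen, and over the 4 the adjusted p was 0.0286 (exact permutation test). With pairs chosen this way, p-values at this floor restate the values and are not a test of whether the falls differ. A second ratio of the 4, Dhrs3 against Tgm2, fell by 0.68 on the log2 scale, and the same limit holds for its p of 0.0286 (exact permutation test).

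Of the enzymes that clear retinoic acid, Cyp26b1 fell and Cyp26a1 did not pass the test. Cyp26b1 had log2 signals of -4.31, -4.54, -4.57 and -4.65 on control arrays 1 to 4. On the HX630 arrays they were -5.75, -5.93, -6.26 and -6.09. The groups did not overlap, and the least affected HX630 array lay more than 1 log2 unit below the lowest control array. The log2 fold change was -1.49 (SE 0.119, 95% interval -1.77 to -1.21, adjusted p = 2.2e-05 in limma), the 315th largest fall. The gene was dim in both groups, with processed intensities of 58.4 to 78.2 on control arrays and 24.0 to 33.5 on HX630 arrays, so its fold rested on the background subtraction more than that of Dhrs3. With a normexp background correction in place of the processed signal, the log2 fold change was -1.09 and was still called.

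Cyp26a1, the best known target of retinoic acid among these genes and the one with a DR5 printed above, was at the edge of detection. Its probe was well above background on none of the control arrays and on all 4 HX630 arrays. The log2 signals were -5.96, -6.41, -6.80 and -6.74 on control arrays 1 to 4, and -5.69, -6.02, -6.11 and -6.19 on the HX630 arrays. The groups overlapped, since control array 1 was brighter than 3 of the HX630 arrays. The log2 fold change was 0.48 (95% interval 0.013 to 0.94, adjusted p = 0.0729 in limma). The probe entered the test only through the HX630 arrays, the group where it read higher, so neither this value nor those under other settings can support a rise. The raw median intensities of the spot were 49 to 62 in the control and 57 to 74 with HX630, over local backgrounds of 21 to 25 and 20 to 21. Without control array 1 the log2 fold change was 0.65 and was called (adjusted p = 0.00734 in limma), and over all alternatives it lay between -0.23 and 0.70. It was below 0 with the normexp correction, so no direction was settled. The ratio of Cyp26b1 to Cyp26a1 was among the 4 ratios but is not read here, since Cyp26a1 was not well above background on any control array, and the changes of these 2 genes were not shown to differ. The last of the 4 ratios, Dhrs3 against Cyp26b1, fell by 0.37 on the log2 scale (exact permutation test, p = 0.0286), but with any array other than control array 1 left out its p was 0.0571, so these 2 genes were not shown to differ in their fall.

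Tgm2 cross-links proteins and is induced by retinoic acid in several cell types. Its brighter probe read 1.65, 1.57, 1.58 and 1.67 on control arrays 1 to 4 and 0.52, 0.43, 0.38 and 0.46 on the arrays of HX630 samples in log2 units. The log2 fold change was -1.17 (SE 0.0435, 95% interval -1.27 to -1.07, adjusted p = 4.85e-07 in limma). The other probe of the gene gave -1.14 (SE 0.0376, 95% interval -1.23 to -1.06), so the probes differed by less than their errors. The groups did not overlap with either probe, and the gene had the 564th largest fall.

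The carriers and the uptake receptor showed no change past the test. Crabp2 hands retinoic acid to RAR in the nucleus. Its log2 signal was -1.33, -1.59, -1.82 and -1.79 on control arrays 1 to 4, and -1.88, -1.80, -1.91 and -1.87 on the HX630 arrays. The groups overlapped, with control array 3 inside the HX630 range, and the log2 fold change was -0.23 (95% interval -0.48 to 0.018, adjusted p = 0.0989 in limma). Stra6, the membrane receptor that takes retinol from its plasma carrier, had log2 signals of -5.88, -5.91, -6.10 and -6.01 on control arrays and -5.55, -5.54, -5.78 and -6.17 on HX630 arrays. It was dim but well above background on all 8 arrays, HX630 array 4 lay below every control array, and the log2 fold change was 0.21 (95% interval -0.12 to 0.54, adjusted p = 0.231 in limma). With the normexp correction it was -0.20. These intervals still allow log2 differences of -0.48 for Crabp2 and 0.54 for Stra6, so equal levels were not shown.

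Crabp1 was not well above background on any array, with raw intensities of 49 to 82 over local backgrounds of 18 to 25. Aldh1a3, which completes the synthesis of retinoic acid, was well above background on HX630 array 1 only. That array read -4.69 on the log2 scale, while the other 3 HX630 arrays read -9.27 to -9.41 and the control arrays -8.57 to -9.22. No change was measured for either gene.

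**Figure D3:**
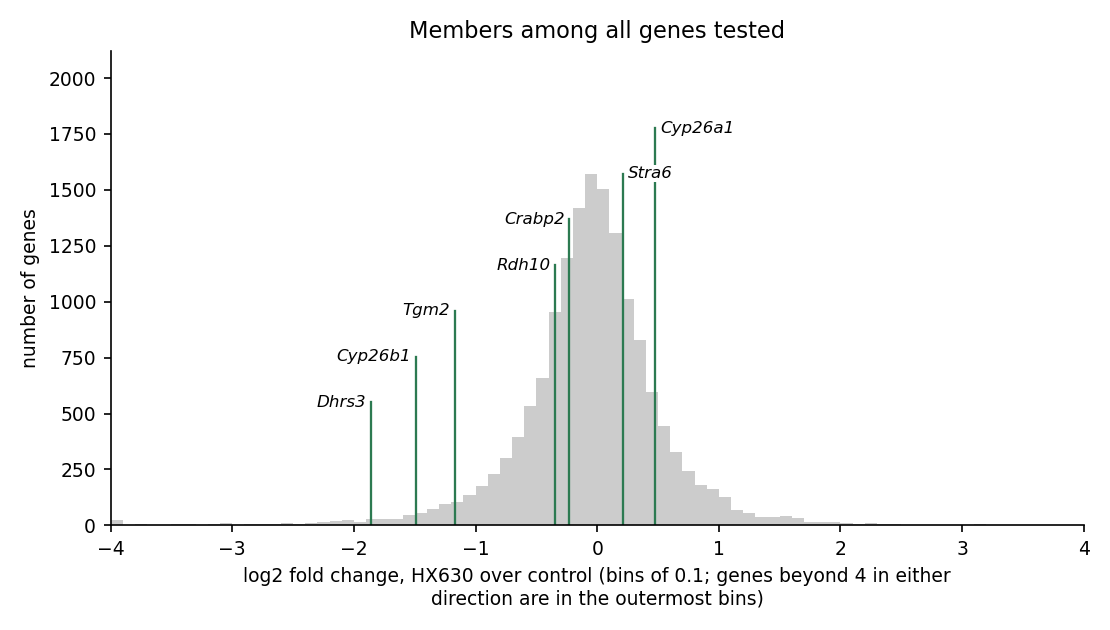
Log2 fold change of the 15320 genes tested (grey bars, number of genes in bins of 0.1) with the 7 tested genes marked by green lines whose height has no meaning. Dhrs3, Cyp26b1 and Tgm2 lie in the lower tail, at -1.86, -1.49 and -1.17, and Rdh10, Crabp2, Stra6 and Cyp26a1 lie within the main body.

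The receptors that read retinoic acid and HX630 were measured on the same arrays. Of the 6 RAR and RXR genes none rose and 1, Rarb, fell, where 8.38% and 11.2% of all genes did, and their median log2 fold change was -0.28. Rarb is itself a target of retinoic acid with a DR5 in its promoter, as printed above. Its log2 signal was -5.53, -6.18, -6.33 and -6.24 on control arrays 1 to 4 and -7.41, -6.61, -6.86 and -6.97 on the HX630 arrays, where array 1 was not well above background. All HX630 arrays were below all control arrays, and the log2 fold change was -0.89 (SE 0.222, 95% interval -1.41 to -0.38, adjusted p = 0.00934 in limma). This call was at the threshold: the change was below 0 in all 22 alternatives that gave it, between -1.01 and -0.67, but was called in only 5. With any array other than HX630 array 2 left out, the adjusted p in limma was 0.0113 to 0.0245. The second Rarb probe was not well above background on any array.

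Rarg and Rxrb were bright and tightly measured. Rarg, at -0.39 (SE 0.0382), and Rxrb, at -0.33 (SE 0.0306), were lower on the log2 scale with adjusted p of 6.78e-05 and 5.14e-05 in limma, but both by less than 1.5-fold. With arrays scaled to their spike-in probes, Rarg was -0.17 (adjusted p = 0.0666 in limma) and Rxrb -0.11 (adjusted p = 0.0866 in limma), so these small falls depended on the scaling. Rara changed by -0.22 (adjusted p = 0.00573 in limma), but by -0.0010 (adjusted p = 0.991 in limma) with the spike-in scaling. Rxrg changed by -0.19 (adjusted p = 0.0576 in limma) with its brighter probe. The other Rxrg probe gave 0.24 (SE 0.465) and was dim, being well above background on 3 arrays of each group. Rxra, the RXR found in most tissues, gave values that depended on the probe. Its brighter probe gave a log2 fold change of 0.096 (95% interval -0.17 to 0.36, adjusted p = 0.503 in limma), while the other gave -0.68 (95% interval -0.93 to -0.42, adjusted p = 0.00107 in limma) and was called, so no direction can be given for the gene. Rxrg turned to 0.029 when arrays were scaled to their spike-in probes and to 0.022 when its probes were averaged.

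**Figure D4:**
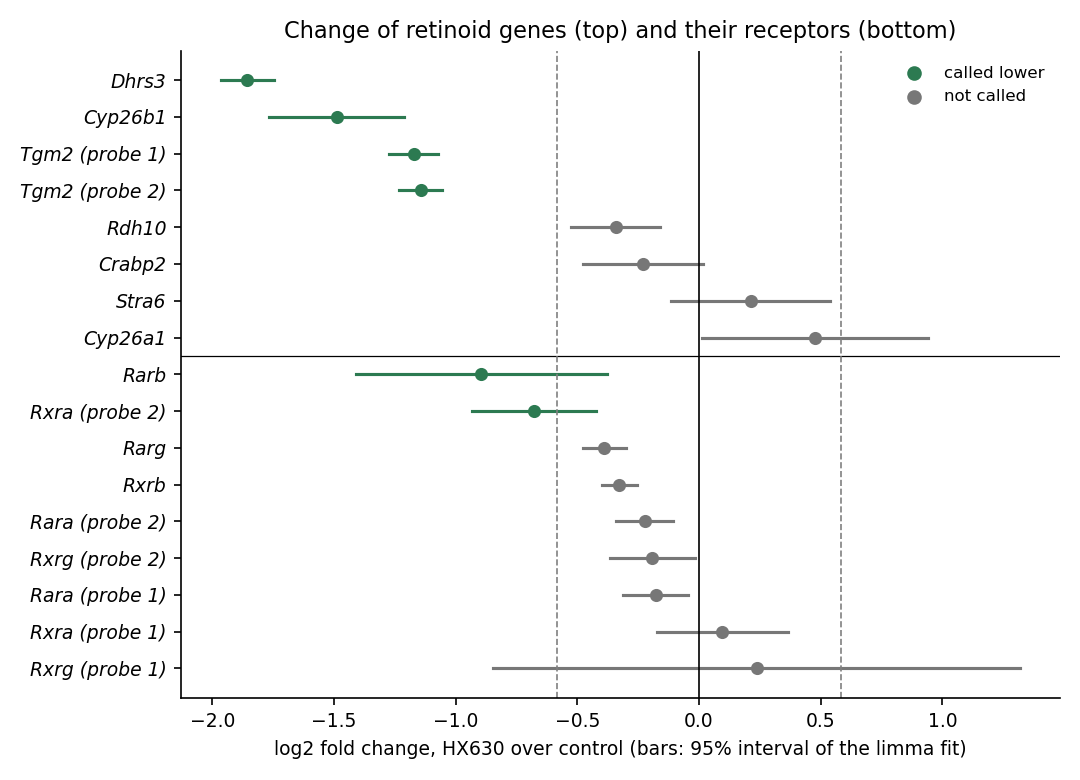
Log2 fold change of HX630 over control for each tested probe of the retinoid genes (upper block) and of the receptors (lower block), with the 95% interval of the fit. Dashed lines mark the 1.5-fold threshold in each direction, and green probes were called lower. Dhrs3, Cyp26b1 and both Tgm2 probes lie wholly beyond the lower dashed line, and the 2 Rxra probes lie on opposite sides of 0.

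Beyond these genes, most of the retinoid pathway changed by less than 1.5-fold. A list of 41 other genes of retinoid uptake, storage, oxidation, reduction, clearance and binding had 31 tested. Of these, 2 were called higher and 1 lower, beside 8.38% and 11.2% of all genes, and 1 of the 2, Rpe65, cannot support a rise, as given below. At an adjusted p under 0.05 in limma with no fold threshold, 7 of the 31 were higher and 12 lower, beside 29.7% and 34% of all genes. Their median log2 fold change was -0.23. Rbp7, a cytoplasmic binder of retinol, rose by 1.51 on the log2 scale (SE 0.0562, adjusted p = 4.92e-07 in limma), from -3.11 ± 0.0991 (SD, n = 4) to -1.60 ± 0.0508 (SD, n = 4). Rpe65, the isomerase of the visual cycle, was called higher at 0.68 (SE 0.0979, adjusted p = 0.000569 in limma), but it was well above background on only 1 control array, and with the normexp correction the value was -0.13. It entered the test only through the 4 HX630 arrays, the group where it read higher, so this call cannot support a rise. Rdh1, a retinol dehydrogenase, was called lower at -0.85 (SE 0.208, adjusted p = 0.00869 in limma) and was well above background on 2 of the 4 HX630 arrays. Its call was lost with any array other than control array 2 left out, at adjusted p of 0.0134 to 0.025 in limma. Of the tested genes that were not called, those with the largest differences were Bco2 (-0.62), Rdh9 (-0.58) and Stra6l (-0.56). Bco2 splits carotenoids, Rdh9 is a further dehydrogenase and Stra6l is a relative of Stra6. Without HX630 array 1 the log2 fold change of Bco2 was -1.20 and was called (adjusted p = 0.000937 in limma).

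Of 45 genes outside the 9 that respond to retinoic acid in other cells, 35 were tested, 4 rose and 4 fell, shares near the 8.38% and 11.2% of all genes tested. Their median log2 fold change was -0.054. The largest rise was in Gprc5c, a receptor of the family induced by retinoic acid, whose 4 probes gave log2 fold changes of 1.29 to 3.46. Its relative Gprc5b rose by 0.70 (adjusted p = 1.12e-05 in limma) with its brighter probe, while the other gave 0.26 and did not pass. Foxa1, a forkhead transcription factor, rose by 0.76 (adjusted p = 1.69e-05 in limma). Rai2, named for its induction by retinoic acid, rose by 1.01 (adjusted p = 3.61e-06 in limma).

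Lamb1 and Col4a1, which encode the basement membrane proteins laminin beta 1 and collagen IV alpha 1 and rise with retinoic acid in embryonal carcinoma cells, fell here. Lamb1 fell by 2.82 on the log2 scale (SE 0.177, adjusted p = 5.75e-06 in limma) and Col4a1 by 1.31 (SE 0.0771, adjusted p = 4.05e-06 in limma). Bhlhe40, a repressor of the circadian clock, fell by 1.63 (SE 0.0573, adjusted p = 4.04e-07 in limma), and Rarb completed the 4. The largest differences that were not called were in Cdx1 (-1.31), Tgfb2 (0.86) and Meis1 (0.56). Without control array 3, Cdx1 gave -0.87 and was still not called, while Tgfb2 gave 1.11 and was called (adjusted p = 0.000156 in limma).

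The DR5 windows belonged to 31 genes, of which 6 were tested, and 2 rose and 1 fell, too few to set against the 8.38% and 11.2% of all genes. Blvrb, a biliverdin reductase, rose by 1.23 (adjusted p = 5.81e-07 in limma), Cfap45, a protein of cilia, rose by 1.03 (adjusted p = 5.27e-06 in limma), and Rarb fell. Cyp26a1, Prss27 and Tnfsf13b were not called, the last of these at -0.28 (adjusted p = 0.156 in limma) and Prss27 at -0.048 (adjusted p = 0.802 in limma). These genes were named for holding the repeat, after their values were seen.

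The genes whose pattern over the 8 arrays was most like that of Dhrs3 were Gsto2, Esrrb, Hk2, Npas4 and Necab2, with Pearson correlations of 0.9996 to 0.9997 across arrays. Their log2 fold changes were -1.19, -2.41, -3.18, -2.40 and -1.49. Hk2 is a hexokinase of glycolysis, Esrrb an orphan nuclear receptor, Npas4 a transcription factor of active neurons, Gsto2 a glutathione transferase and Necab2 a calcium-binding protein of neurons. Of 14299 genes compared, 3478 had a correlation above 0.9, and with 2 groups this far apart the value is set mostly by the difference between groups.

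The labelled cell type was checked against corticotroph markers. Of 7, 6 were well above background, among them Pomc, which encodes the ACTH precursor, and Tbx19, and only the vasopressin receptor Avpr1b was not. The summed linear signal of all probes of the 7 was 301.6 to 376.7 times the 75th percentile of the array in the control and 219.1 to 229.3 times with HX630. The log2 fold change was -0.45 (adjusted p = 0.00241 in limma) for Pomc and -2.06 (adjusted p = 1.26e-07 in limma) for Pcsk1, which cuts the precursor. Pomc and Pcsk1 made up most of this sum, with log2 means of 8.03 and 6.16 in the control, while Pitx1 was next at 2.855. Crhr1, the receptor of corticotropin-releasing hormone, rose by 1.11 and the transcription factor Neurod1 by 0.72. Of 8 markers of other pituitary cells, 4 were tested, and Gh fell by 0.79. The summed signal of all probes of the 8 was 0.332 to 0.5046 in the control and 0.3188 to 0.3787 with HX630. Prl, Tshb and Cga were not well above background on any array. Of 5 fibroblast markers, 4 were tested, and Dcn rose by 1.04. The summed signal of all probes of the 5 was 0.106 to 0.1268 in the control and 0.1122 to 0.1603 with HX630. The part of these shifts in the changes of the retinoid genes was not tested. Arrays of one group correlated at 0.992 to 0.994 and arrays of different groups at 0.983 to 0.987, and each array had 69.7% to 73.5% of its probes well above background.

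The falls of Dhrs3, Cyp26b1 and Tgm2 were called under all 23 other ways of treating the data. Dhrs3 ranged from -1.89 to -1.63, Cyp26b1 from -1.57 to -1.09 and Tgm2 from -1.20 to -0.95 on the log2 scale. The smallest falls of Dhrs3 and Tgm2 came with scaling to the spike-in probes, which moved the median of all probes tested from -0.056 to 0.17. Of the 2994 genes called (19.5% of those tested), 42.9% were higher with HX630, against 70.9% with the spike-in scaling and 54.7% with scaling to the median of each array.

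**Figure D5:**
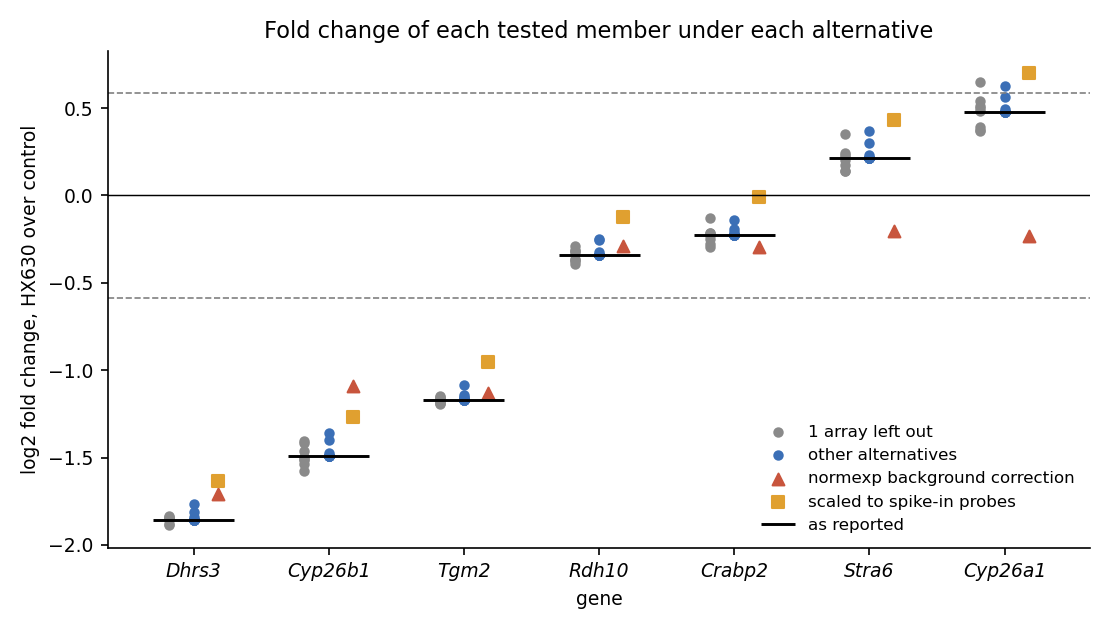
Log2 fold change of HX630 over control for each of the 7 tested genes as reported (black line) and under each alternative (grey, 1 array left out; orange squares, spike-in scaling; red triangles, normexp background correction; blue, all others). Dashed lines mark the 1.5-fold threshold, which Dhrs3, Cyp26b1 and Tgm2 pass under every alternative shown, while Stra6 and Cyp26a1 lie above 0 except with normexp.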

How the data were processed

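Cy3-labeled RNA of 4 control and 4 HX630 samples had been hybridized to 1-color Agilent arrays. The authors deposited spot intensities from Feature Extraction 10.7.3.1, background-subtracted and spatially detrended per the methods, and a table of log2 values, which by comparison equal the log2 signal less its 75th percentile on each array (99.7% to 99.84% of probes within 0.001). Control spots (1377 of 44397) and outlier spots were left out, spots of a probe were averaged, and log2 processed signal minus the 75th percentile (intensities 1335 to 1899) was used. Probes well above background on at least 4 of 8 arrays were compared with lmFit and eBayes in limma 3.58.1 (R 4.3.3), with no block, and genes were represented by their brightest tested probe. Names came from RefSeq accessions. The number of arrays limits the precision (median SE 0.0663). No probe was saturated.

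Named were all 9 genes, the receptors, the called genes of each list with up to 3 more of the largest differences, the 5 genes most correlated with the largest fall, and the cell type markers. Genes with DR5 windows were named after their values were seen. Alternatives changed the scaling, background correction, filter, test, threshold, probe rule, block and arrays. The genes and lists were chosen with earlier results of these data known.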

Additional observations from a re-analysis of the deposited data

Results flagged for a closer look

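In 5 of 64 groups of 4 arrays, 1 array stood apart from the others by more than Dixon's 95% limit, and chance alone gives about 1 in 20, or 3.2 of 64. Aldh1a3 had 1 of the HX630 arrays apart (ratio of gap to range 0.97), array 1 at -4.69 against a mean of -9.36 for the others. Rdh1 had HX630 array 3 apart (ratio 0.907), at -7.14 against -6.51. Cdx1 had control array 3 apart (ratio 0.95), at -3.91 against -5.69. Lamb1 had array 1 apart in both groups, at -3.89 against -3.54 in the control (ratio 0.845) and at -5.92 against -6.62 with HX630 (ratio 0.846).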

How the results depend on the processing

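Over 23 alternatives the 7 tested genes gave 160 values, of which 154 kept direction and call, 4 gained a call and 2 reversed. With the normexp correction, values reversed for Cyp26a1 (-0.23), Stra6 (-0.20), Rpe65 (-0.13) and Rxra (-0.063). Rxra (-0.29) and Rxrg (0.022) reversed with probes averaged, and Rxrg (0.029) with spike-in scaling. Of these only Rpe65 was called as reported, and the cause was not tested. Of the 9 genes, 1 was called higher with quantile and with spike-in scaling, and 0 to 1 with an array left out (1 without control array 1, Cyp26a1, which was tested only through the HX630 arrays), while 3 were called lower with each array left out. Of the other retinoid genes, 5 were called higher with quantile and with median scaling, 7 with spike-in scaling, 1 with only probes well above background on all 8 arrays (fewer genes tested), 7 at an adjusted p under 0.05 without a fold threshold, and 2 to 3 with an array left out. Called lower were 0 with the percentile over detected probes, spike-in scaling, normexp, the filter on all 8 arrays and the methods' t-test, raw or adjusted, 12 at an adjusted p under 0.05, and 0 to 2 with an array left out (0 without control array 1 or HX630 array 2, 2 without control array 3 or HX630 array 1). Of the response genes, 8 were called higher with spike-in scaling, 13 were called higher and 10 lower at an adjusted p under 0.05, and 4 to 5 higher and 3 to 4 lower with an array left out.

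Replicate numbers were not shown to pair the samples: same-numbered arrays correlated at 0.52, -0.0093, 0.24 and 0.38 in their deviations from the group means, and 2 of 4 did so best with their own number. With a replicate block 1334 genes were called higher and 1780 lower, beside 1284 and 1710, and 0 of the other retinoid genes were called lower. Rarb (adjusted p = 0.0378 in limma) and Rdh1 (0.0175) lost their calls and Cdx1 (0.00607) gained one. The normexp correction moved the median of all probes tested to -0.14. The dim signals of Cyp26a1, Stra6, Rarb, Rpe65 and Rdh1 limit what can be said of these genes.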
